A study of Mus musculus with 2 samples.

Results

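Complexes II to V of mitochondrial respiration were followed here through the mRNAs of their nuclear-encoded subunits in MCMs, mouse cardiomyocytes bought as cultured cells and passaged, after knockdown of *Ppp2r5d*, whose product (the delta form of subunit B') steers the phosphatase PP2A to its substrates. The members were taken by gene name from the non-control probes of the microarray: *Sdha* to *Sdhd*, names starting with *Uqcr*, *Cyc1* and *Cycs*, names starting with *Cox4*, *Cox5*, *Cox6*, *Cox7* or *Cox8*, and names starting with *Atp5*. This gave 48 of 37074 gene names, with 4 in complex II, 9 in complex III, cytochrome c itself, 17 in complex IV and 17 in complex V. The rule uses names alone and no measured value. *Cox5b* was not analysed here. Names taken by this rule include *Cox7a2l*, which encodes a factor that joins complexes III and IV into supercomplexes, and *Atp5s* and *Atp5sl*, which do not encode subunits of ATP synthase in spite of their names.

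The respiratory chain sits in the inner mitochondrial membrane. Complex II, succinate dehydrogenase, passes electrons from succinate to ubiquinone, complex III passes them from ubiquinol to cytochrome c, and complex IV, cytochrome c oxidase, passes them to oxygen. Complexes III and IV pump protons across the membrane, whereas complex II does not. Complex V, ATP synthase, lets the protons flow back through its membrane part and makes ATP in its soluble F1 part. Heart muscle depends on this system for nearly all of its ATP. Several subunits of complex IV exist as a form made in most tissues and a form made mainly in heart and skeletal muscle, and in the heart the muscle forms *Cox6a2*, *Cox7a1* and, in the mouse, *Cox8b* become prominent as the muscle matures.

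The arrays compare 1 culture given the negative control siRNA-NC with 1 given siRNA-*Ppp2r5d*, both by Lipofectamine RNAiMAX. Both cultures were in glucose-free medium from 48 h after transfection and gave their RNA at 64 h, and the labels name no ISO (isoproterenol, a beta-adrenergic agonist) for either. Each culture was read on its own one-colour array, so no value below has a replicate check and no test was run, and the siRNA and the culture cannot be told apart. Values are intensities as the scanner software gave them, and log2 fold changes of siRNA-*Ppp2r5d* over siRNA-NC after the 75th percentile of each array (592 for siRNA-NC, 518 for siRNA-*Ppp2r5d*) was set equal. With this scaling, a gene of the same raw intensity on both arrays has a log2 fold change of 0.19 and not 0. Where several probes of a gene stood well above background on both arrays, their mean is its value, and 20311 genes had at least 1 such probe. In bulk RNA, fewer cells of a type and less RNA per cell cannot be told apart, and the precision of every value is limited by having only these arrays.

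*Ppp2r5d* itself gave an intensity of 4701 with siRNA-NC and 676 with its own siRNA, 6.09-fold lower. Of 14 cardiomyocyte markers, 7 were well above background on both arrays, among them *Tnnt2* (858 and 1006) and *Actc1* (6443 and 5268), while *Myl2*, *Myl7*, *Actn2*, *Pln* and *Ckm* were on neither and *Myh6* and *Ryr2* on the siRNA-*Ppp2r5d* array alone. Markers of other cells were present too, with 7 of 8 for fibroblasts, 4 of 4 for smooth muscle, 3 of 4 for leukocytes, 4 of 5 for skeletal muscle and 1 of 5 for endothelium. A marker counted if at least 1 probe passed, as with *Tnnt2* (1 of 3 probes) and *Ptprc* (1 of 7). Some were dim, such as *Myh7* (48.1 and 42.8) and *Myh11* (27.1 and 18.2). The labelled cell type thus had some of its defining markers, lacked others, and shared the RNA with fibroblast and smooth muscle transcripts such as *Col1a2* and *Acta2*.

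The pairs of complex IV isoforms are the place where members differed from each other most, so the starts of their probes are shown first. Each array probe has 60 bases, of which the first 30 are printed, 5′ to 3′, and the arrays' own coordinates are of build mm9. The probe of *Cox6a2* lies at chr7:135349160-135349219 on the minus strand, and that of *Cox6a1* at chr5:115795726-115795785 on the minus strand. That of *Cox7a1* lies at chr7:30970337-30970948 on the plus strand, an interval of 612 bases that is longer than the probe. For *Cox7a2* the scanner files give chr9:79603048-79603072 on the minus strand, which covers 25 of the 60 bases. The exons or untranslated regions at these positions were not analysed here.
Cox6a2: agcaatcttcaaattggccttctgcacacc
Cox6a1: ggaccacgaaaaccctttggatgctaagct
Cox7a1: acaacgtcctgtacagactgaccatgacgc
Cox7a2: ttcccaagaagcagaactaatgtcgtcatc
The longest run of bases shared by the probes of *Cox6a2* and *Cox6a1* was 4 bases, and the same length was found for *Cox7a1* and *Cox7a2*. Binding of either probe to the other isoform was not tested.

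Both arrays measured 47 of the 48 members well above background. The exception was *Cox8c*, the testis form of subunit VIII, with intensities of 6.90 and 2.78, well above background on neither. Of the 47, 0 differed by 2-fold or more between the siRNAs, a bar that 0.881% of all genes passed upward and 1.06% downward. At 1.5-fold, 0 members were higher, where 3.34% of all genes were, and 1 was lower, where 4.63% of all genes were. That 1 member was *Cox6a2*. The nearest members inside the threshold were *Cox7b2*, *Cox8b* and *Atp5d*, with log2 fold changes of 0.54, 0.51 and 0.49.

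By sign, 41 members had a log2 fold change above 0 and 6 below, where 54.0% of all genes were above 0. The median was 0.11 over the members and 0.02 over all genes. Those signs turn on the scaling: under quantile normalization 21 members were above 0 and 26 below, and under scaling to the spike-in probes 14 were above and 33 below, while the median of all genes moved to -0.15. The members also gave strong signals. When the 20311 genes were split into 10 classes of equal size by mean signal, 30 members fell in the brightest class, whose 2031 genes had a median of 0.16, with 84.6% above 0. The 30 members of that class ran from -0.05 to 0.27 with a median of 0.13, and 29 of them lay above 0. Set against the median of their own class, 19 members lay above it and 27 below, and 1 was the median gene itself. The plot of fold change against signal shows both.

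**Figure D1:**
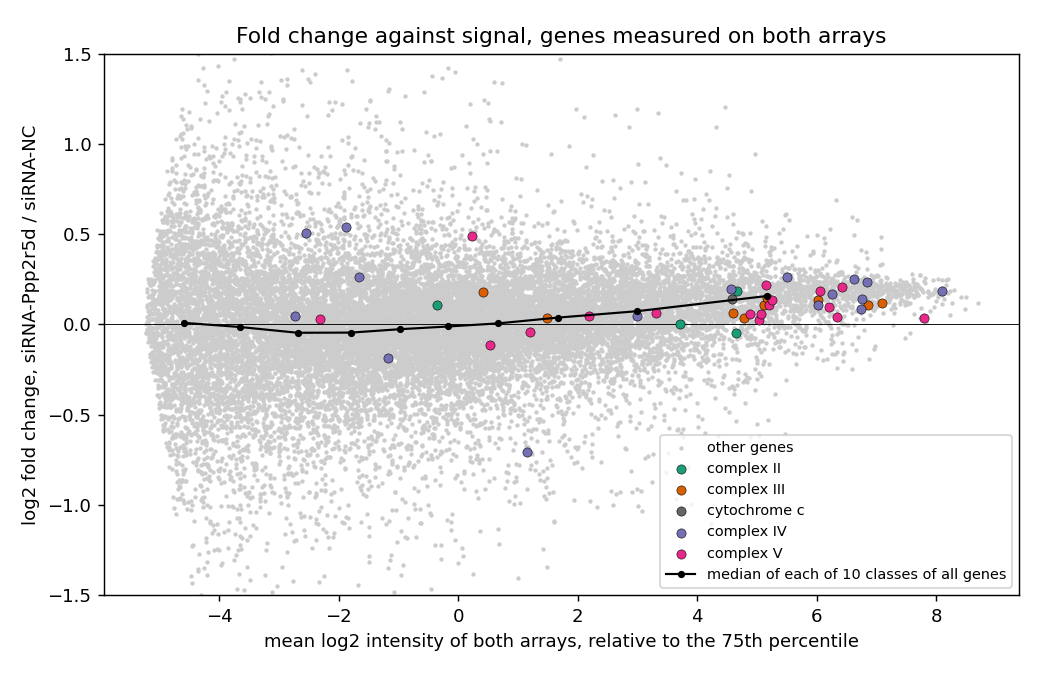
Log2 fold change of siRNA-Ppp2r5d over siRNA-NC (vertical axis, cut at 1.5 on both sides) against the mean log2 intensity of both arrays relative to the 75th percentile (horizontal axis) for genes well above background on both arrays, 1 point per gene. Grey points are other genes, coloured points are members, and the black line joins the medians of 10 classes of all genes by signal. The line climbs to 0.16 in the brightest class, where 30 of the 47 members lie around it, and Cox6a2 stands apart at -0.71.

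Complex II has 4 subunits, all encoded in the nucleus. *Sdha*, the flavoprotein that oxidises succinate, was measured by 4 probes. The brightest had intensities of 12374 and 12458 (log2 fold change 0.20), the next 1373 and 1352 (0.17), and the 2 dim ones 81.9 and 82.3 (0.20) and 28.5 and 22.8 (-0.13). *Sdhb*, the iron-sulphur subunit, had 24080 and 24489 on one probe (0.22) and 8327 and 8120 on the other (0.16). *Sdhb* was thus the highest of the complex, with 0.19 as a gene, the value that an equal raw intensity on both arrays gives.

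The membrane anchors of complex II, at which ubiquinone binds, were the lower pair. *Sdhc* had intensities of 7801 and 6831, a log2 fold change of 0.00. *Sdhd* had 15168 and 12842, a log2 fold change of -0.05, the lowest of the 30 members in the brightest class. The median of the complex was 0.05, with the catalytic subunits *Sdha* and *Sdhb* above it and the anchors below. This median was 0.10 with the brightest probe of each gene and -0.12 under scaling to the spike-in probes.

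In complex III, the 9 members lay between 0.04 and 0.18 with a median of 0.11, the narrowest range of the 4 complexes. Among the lowest were the core proteins that hold the complex together. *Uqcrc2* had intensities of 16027 and 14397 (log2 fold change 0.04) and *Uqcrc1* had 14033 and 12827 (0.06).

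*Uqcrb*, a small subunit at the ubiquinone site, showed how far probes of a gene can part. Its bright probes had 22608 and 22142 (log2 fold change 0.16) and 5853 and 6110 (0.25), whereas a dim probe had 33.1 and 23.5 (-0.30). The mean over the probes was 0.04. The dim probe was designed against an Ensembl transcript and the others against RefSeq mRNAs.

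The subunits that carry electrons were at the middle and the top of this range. *Cyc1*, cytochrome c1, had 16179 and 15511 on one probe (log2 fold change 0.13) and 24435 and 22657 on the other (0.08). *Uqcrfs1*, the Rieske iron-sulphur protein, had 12618 and 12329 on its bright probe (0.16) and 44.2 and 44.4 on a dim one (0.20), and led complex III at 0.18.

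The other small subunits lay at the median of the complex or above it. *Uqcr10* had 49983 and 49467 on one probe (log2 fold change 0.18) and 8231 and 7832 on the other (0.12), and *Uqcr11* had 36670 and 35316 (0.14). *Uqcrh*, the hinge protein that docks cytochrome c1, and *Uqcrq* had log2 fold changes of 0.12 and 0.11. All 9 values lay above 0 with the 75th percentile, but 7 of them lay below the median of their own signal class and 1 above. The median of the complex was -0.02 under quantile normalization and -0.07 under scaling to the spike-in probes. *Cycs*, the cytochrome c of somatic cells that carries electrons from complex III to complex IV, had 29443 and 29748 on one probe (0.21) and 6178 and 5709 on the other (0.08), 0.14 as a gene.

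**Figure D2:**
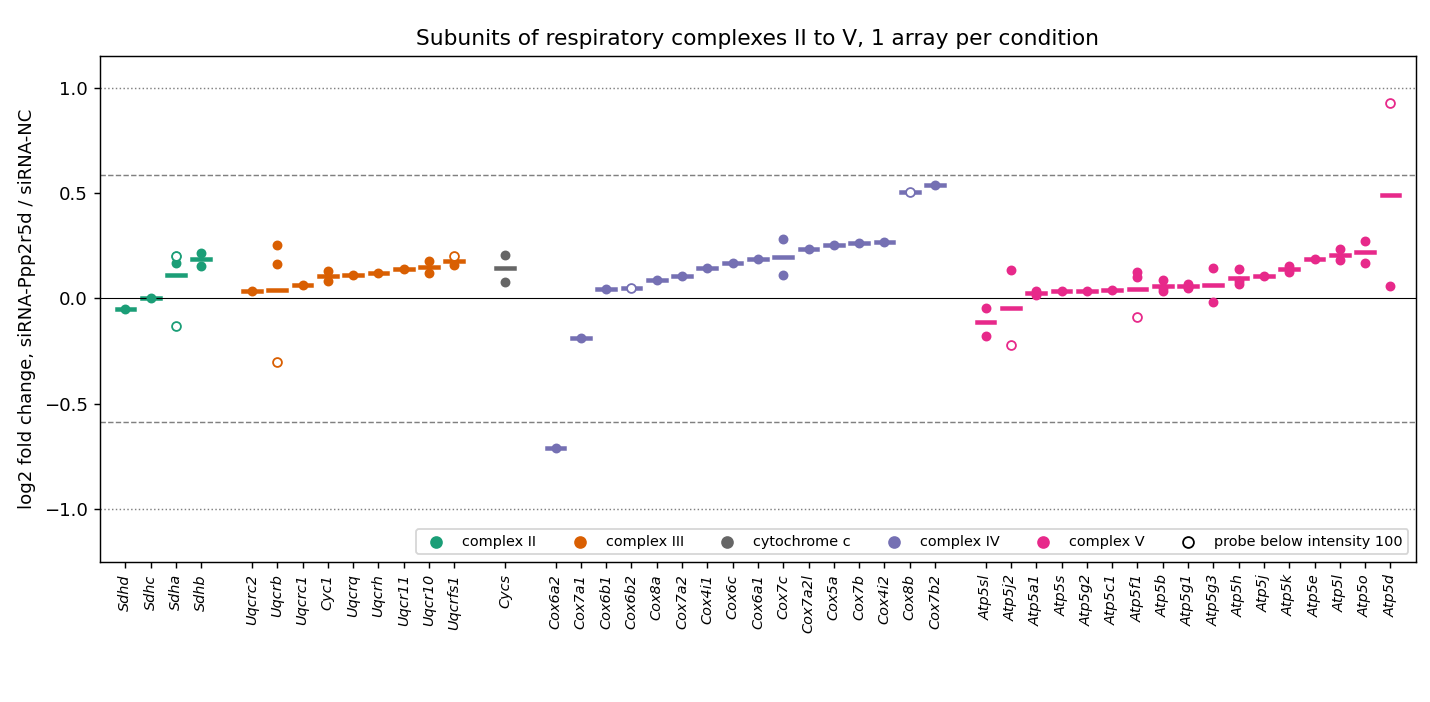
Log2 fold change of siRNA-Ppp2r5d over siRNA-NC for the 47 members well above background on both arrays, ordered within each complex. Bars are gene values, filled points are probes of intensity 100 or more on both arrays and open points dimmer probes. Dashed lines mark 1.5-fold and dotted lines 2-fold, and Cox6a2 is the 1 gene past a dashed line.

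Complex IV had the widest spread, from -0.71 to 0.54 over 16 measured members, with a median of 0.18. Its common forms did not share that spread. The 9 of them, among them *Cox4i1*, *Cox5a*, *Cox6a1* and *Cox6c*, lay between 0.05 and 0.27 with a median of 0.17. The lowest of these was *Cox6b1*, a subunit on the side of the intermembrane space, with intensities of 4659 and 4210 (log2 fold change 0.05). The highest was *Cox7b* with 24367 and 25637 (0.27), followed by *Cox5a*, one of the subunits around the catalytic core, with 53331 and 55617 (0.25). The supercomplex factor *Cox7a2l* had 62366 and 64329 (0.24). In raw intensity these 3 genes were higher with siRNA-*Ppp2r5d*, as were 10 of the 58 member probes with intensities of 1000 or more. *Cox6c* had 42876 and 42202 (0.17), and *Cox7c* had 20426 and 19314 on one probe (0.11) and 8484 and 9016 on the other (0.28).

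The tissue-restricted forms accounted for both ends of complex IV. *Cox6a2*, the heart and skeletal muscle form of subunit VIa, had an intensity of 1680 with siRNA-NC and 899 with siRNA-*Ppp2r5d*. This is a log2 fold change of -0.71, or 1.64-fold lower, and lies at percentile 1.62 of the 2031 genes in its own signal class. *Cox6a1*, the form of most tissues, had 152506 and 151879, a log2 fold change of 0.19. The muscle form was thus lower than the common form by a difference of -0.90 in log2 fold change, and this difference stayed between -0.90 and -0.72 over the 12 alternatives in processing. Over the same alternatives *Cox6a2* itself ran from -0.89 to -0.68, always more than 1.5-fold lower. A single probe gave each of these values, so no second probe of *Cox6a2* bears on it. These probes passed every filter and stand alone for their genes, so filters and probe rules could not change the values. Scaling by a constant could not change the difference, which it left at -0.90.

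*Cox7a1*, the muscle form of subunit VIIa, had 281 with siRNA-NC and 216 with siRNA-*Ppp2r5d*, a log2 fold change of -0.19. *Cox7a2*, its common counterpart, had 37036 and 34960, a log2 fold change of 0.11. The difference between them was -0.30 and ran from -0.30 to -0.11 over the alternatives. Within its own signal class, *Cox7a1* lay at percentile 24.7, well inside the spread of genes of like signal. It was not past 1.5-fold.

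*Cox8b*, the muscle form of subunit VIII in the mouse, went the other way. Its intensity was 85.6 with siRNA-NC and 106 with siRNA-*Ppp2r5d*, a log2 fold change of 0.51, against 61479 and 57143 for *Cox8a*, the common form (0.09). The difference was 0.42 and ran from 0.27 to 0.64 over the alternatives that gave one. By sign on these 2 arrays, the 3 muscle forms did not go the same way: *Cox6a2* and *Cox7a1* were below their common forms and *Cox8b* was above. *Cox8b* was dim, with an intensity under 100 on the siRNA-NC array. Of the muscle forms, *Cox6a2* lay in signal class 8 of 10, *Cox7a1* in class 5 and *Cox8b* in class 3. Their common forms lay in class 10. All genes of classes 8, 5 and 3 had medians of 0.04, -0.03 and -0.05, against 0.16 in class 10. Genes of like signal thus differed in the same direction as the pairs of *Cox6a2* and *Cox7a1*, and in the opposite direction to that of *Cox8b*.

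Muscle markers are set beside these forms, with log2 fold changes after scaling and sums of raw intensities. The sums run over probes and were not scaled, so they also hold the difference between the arrays, 592 against 518 at the 75th percentile. Most of the smooth muscle sums came from 1 probe of *Acta2* (133436 and 115480), and most of the cardiomyocyte sums from *Actc1* (6443 and 5268). The 7 cardiomyocyte markers measured on both arrays had a median log2 fold change of 0.08, from -0.19 for *Tnni3* to 0.89 for *Ttn*. Of them, 1 was at least 1.5-fold higher and 0 lower, where 3.34% of all genes were higher and 4.63% lower. The summed intensity of these 7 markers was 10066 with siRNA-NC and 9541 with siRNA-*Ppp2r5d*. The 4 skeletal muscle markers measured on both arrays ran from -0.18 for *Myod1* to 0.67 for *Myh4* with a summed intensity of 3368 and 3607, and *Ckm* was on neither array. The 4 smooth muscle markers summed to 174768 and 156152, with *Cnn1* at 2.41 and *Tagln* at 0.85 above 0 and *Myh11* at -0.38 and *Acta2* at -0.02 below. The 7 fibroblast markers measured on both arrays summed to 404027 and 363246, with 3 above 0 and 4 below, from -0.31 for *Col1a2* to 1.08 for *Lum*, and *Pdgfra* at 0.62 was the other one at least 1.5-fold higher. Of the 3 leukocyte markers measured on both arrays, which summed to 7847 and 6656, *Cd68* had -0.77 and was at least 1.5-fold lower, like *Cox6a2*, while *Ptprc* had 0.13 and *Cd14* had 0.05. The part of any of these cells in the values of the isoforms was not tested.

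Forms restricted to other tissues were dim as well. *Cox7b2*, a testis form, had the highest value of the complex, with 133 and 170 (log2 fold change 0.54). *Cox4i2*, a form made mainly in lung and tied to low oxygen, had 171 and 180 (0.27) beside 60845 and 58826 (0.14) for *Cox4i1*, a difference of 0.12. *Cox6b2*, another testis form, had 88.0 and 79.6, and its log2 fold change of 0.05 was that of *Cox6b1*. Among signal classes, the SD of the log2 fold change over all genes was 0.42 in class 3, where *Cox8b* and *Cox6b2* lie, and 0.18 in the brightest. The dim forms therefore lie in classes of wider spread than the bright common forms. Within their own classes, *Cox7b2* and *Cox8b* lay high, at percentiles 95.4 and 94.0, and *Cox4i2* and *Cox6b2* at 85.1 and 63.0.

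**Figure D3:**
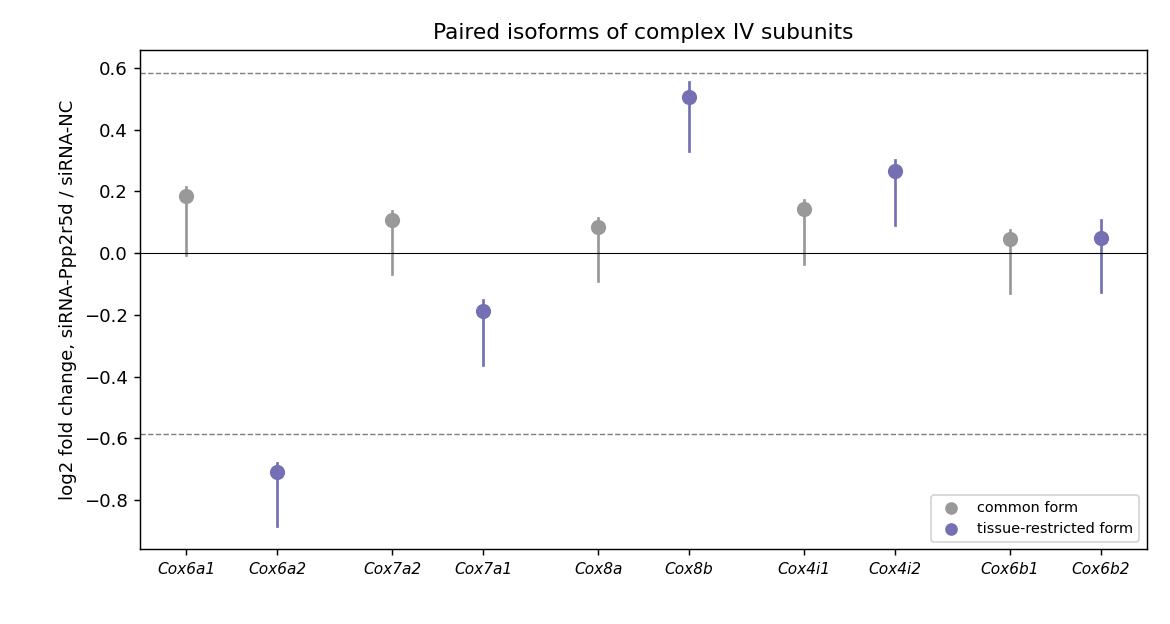
Log2 fold change of siRNA-Ppp2r5d over siRNA-NC for 5 pairs of complex IV isoforms, with the form of most tissues in grey and the tissue-restricted form in purple. Points are the values with the 75th percentile, vertical lines run from the lowest to the highest value over the processing alternatives and are not errors between cultures, and dashed lines mark 1.5-fold. The difference from the common form was -0.90 for Cox6a2, -0.30 for Cox7a1 and 0.42 for Cox8b.

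Complex V had a median of 0.06 over 17 members, from -0.11 to 0.49. The F1 part, in which ATP is made, consists of subunits alpha to epsilon. *Atp5a1*, the alpha subunit, had 57080 and 50599 on one probe (log2 fold change 0.02) and 6430 and 5767 on the other (0.03). *Atp5b*, the catalytic beta subunit, had a log2 fold change of 0.06 over 3 probes and *Atp5c1*, the gamma subunit of the central stalk, had 47431 and 42688 (0.04). *Atp5e*, the epsilon subunit, had 36841 and 36705 (0.19).

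*Atp5d*, the delta subunit of the same stalk, was the highest gene of complex V at 0.49, and its probes parted. The bright probe had 15726 and 14325 (log2 fold change 0.06), and the dim one, designed against an Ensembl transcript, had 21.7 and 36.1 (0.93). On the bright probe alone, *Atp5d* lay within the range of the other F1 subunits. The median of the 5 F1 subunits was 0.06.

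The proton-carrying c ring is made by 3 genes that encode the same mature protein. *Atp5g1*, *Atp5g2* and *Atp5g3* had log2 fold changes of 0.06, 0.04 and 0.06, with an SD of 0.01, the least of the 4 groups of complex V. The single probe of *Atp5g2* was printed in 10 spots per array, with intensities of 130402 and 117061. The peripheral stalk, which holds F1 in place, had a median of 0.10 over 4 genes. *Atp5h* had 0.10 over 3 probes, which ran from 0.07 to 0.14, and *Atp5f1* had 26874 and 25285 (0.10) and 19696 and 18810 (0.13) on its bright probes. Its highest was *Atp5o*, the subunit at the top of the stalk, with 55063 and 54198 on one probe (0.17) and 6866 and 7259 on the other (0.27). *Atp5j*, another stalk subunit, had 20991 and 19789 (0.11) on its bright probe. A second probe of *Atp5j* had 24.2 with siRNA-NC and was not well above background at 8.82 with siRNA-*Ppp2r5d*, and this was the 1 member probe measured on 1 array alone.

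The small subunits in the membrane had a median of 0.14. *Atp5l*, subunit g, had 59835 and 61639 on one probe (log2 fold change 0.23) and 37560 and 37304 on the other (0.18). *Atp5k*, subunit e, had 0.14. *Atp5j2*, subunit f, had 26153 and 25118 on its bright probe (0.13) and 72.9 and 54.7 on a dim one (-0.22), which gave -0.04 as a gene. The names outside the enzyme lay low, with *Atp5sl* at 2527 and 2141 (-0.05) and 313 and 242 (-0.18) on its probes, and *Atp5s* at 0.03. Without these names the median of complex V was 0.06 over 15 genes.

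Probes of a gene served as the 1 check within an array. Of 20 members with several measured probes, 15 had all probes on the same side of 0, the median range between probes was 0.09, and 4 had a range over 0.25. The count by side of 0 says little, since the scaling placed most bright probes above 0. It was not made for all genes with several probes. The 58 member probes with intensities of 1000 or more on both arrays, from 40 genes, lay between -0.05 and 0.28 with an SD of 0.08, and 55 of them were above 0. The 9 probes under 100 on either array lay between -0.30 and 0.93 with an SD of 0.39. By design, 12 of the 74 measured probes were made against transcripts other than RefSeq mRNAs, and 7 of these 12 were under 100, against 2 of the 62 made against RefSeq mRNAs. Spots of 1 probe, which could be compared for 293 probes, differed by a median SD of 0.04 in log2 fold change, which covers the spots and not the cultures.

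In the study, *Sdhb*, *Cyc1*, *Uqcrc2* and *Atp5a1* were also followed by PCR in ISO-treated cells, a condition these arrays do not hold. On the arrays their log2 fold changes were 0.19, 0.11, 0.04 and 0.03. Under scaling to the spike-in probes they were 0.01, -0.07, -0.14 and -0.15, and none was past 1.5-fold under any alternative.

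The place of complex IV among the complexes depended less on the scaling than the signs did. It had the highest median of the 4 under the 75th percentile and under each of the 12 alternatives. Scaling by a constant, as with the spike-in probes or the median of detected probes, shifts all 4 medians alike and could not change their order. Keeping outlier spots moved the members nearly alike, and the authors' log2 values nearly repeat quantile normalization. The 12 alternatives are thus not separate checks. The median of complex IV fell to 0.04 under quantile normalization, 0.05 under cyclic loess and 0.002 under scaling to the spike-in probes. Complex V was at -0.03, -0.02 and -0.12 under the same settings. Members of complex IV lay above the median of their own signal class in 10 of 16 cases and those of complex V in 6 of 17. For complex II this was 2 of 4 and for complex III 1 of 9, with 7 of the 9 below. These counts are a description of 2 arrays.

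**Figure D4:**
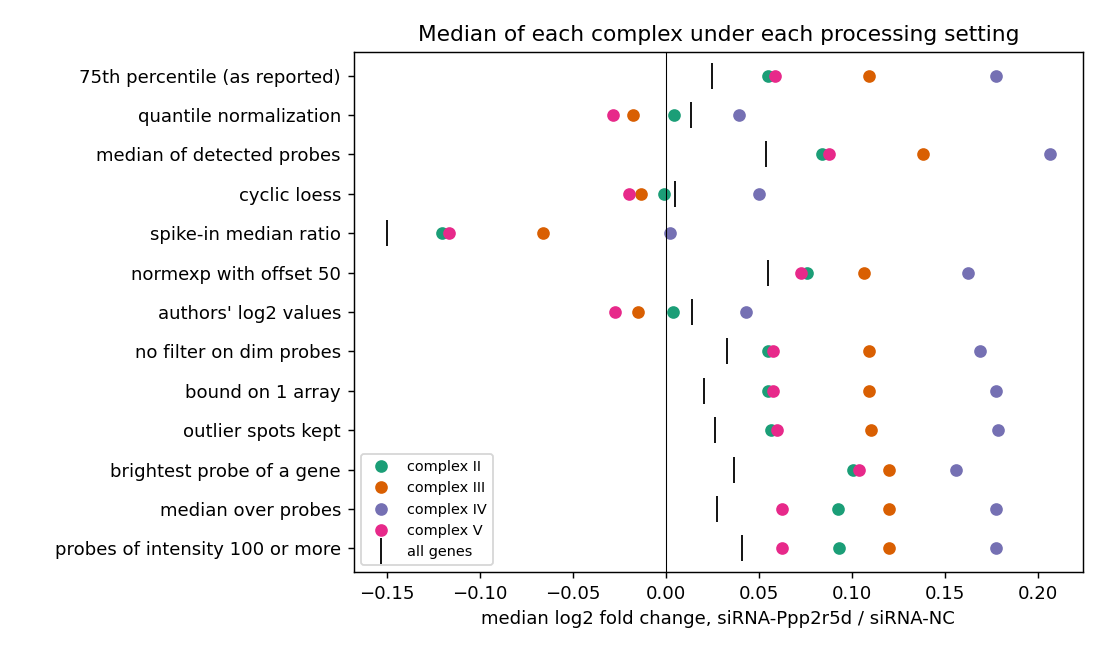
Median log2 fold change of siRNA-Ppp2r5d over siRNA-NC for complexes II to V (coloured points) and for all measured genes (black bars) under the 75th percentile and 12 processing alternatives, 1 row per setting. Complex IV lies to the right of the other complexes in every row, from 0.002 to 0.21, while complexes II, III and V lie on both sides of 0.

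Subunits encoded by mitochondrial DNA are made inside the organelle and join the nuclear ones in complexes III to V. The array measured 4 of the 6 that belong to these complexes, with log2 fold changes of 0.16 for CYTB of complex III, 0.16 for COX1 and 0.15 for COX2 of complex IV, and 0.11 for ATP8 of complex V. All 4 lay in the range of the bright nuclear members. None reached 1.5-fold, which 3.34% of all genes did upward and 4.63% downward.

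Assembly factors insert cofactors and join subunits. Those of complex IV numbered 25, with 19 above 0 and 6 below, where 54.0% of all genes were above 0. That share ran from 42.7% to 84.6% by signal class, and the factors of complex IV were not set against their own classes. These factors had a median of 0.15 and a range from -0.21 for *Coa3* to 0.43 for *Coa5*. Among them were the copper carriers *Sco1* (0.23), *Sco2* (0.27) and *Cox17* (0.07), and *Surf1* (-0.01). The 4 factors of complex II had a median of 0.13, the 6 measured factors of complex III 0.14, and the 4 of complex V -0.01. In complex V the ATPase inhibitor *Atpif1* had 0.28 and the chaperone *Atpaf1* had -0.25. Of these 39 factors, none was past 1.5-fold in either direction, where 3.34% of all genes were higher and 4.63% lower.

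Regulators of mitochondrial gene expression showed 3 above 0 and 10 below, with a median of -0.05, where 54.0% of all genes were above 0. By signal class of all genes, that share ran from 42.7% to 84.6%, and the regulators were not set against their own classes. *Ppargc1a*, a coactivator of respiratory genes, was dim, with 31.2 and 26.4 (log2 fold change -0.05), and *Ppargc1b* had -0.24. *Nrf1*, a factor that binds many respiratory promoters, had -0.19, *Esrra* had -0.04 and *Gabpa* had -0.02. *Tfam*, which packs and transcribes mitochondrial DNA, was the highest at 0.27. *Esrrg* was well above background on neither array and *Mef2c* on the siRNA-NC array alone. None of the 13 measured on both arrays reached 1.5-fold, which 3.34% of all genes did upward and 4.63% downward.

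Promoter letters were read for the members to set beside these values, since NRF1 and the ETS factor GABP are known to bind many respiratory promoters. RefSeq promoters of build GRCm38.p6 were matched for 37 members. Each promoter was searched over its whole sequence, which runs past the start of the gene. On either strand, the NRF1 motif GCGCATGCG stood in 7 of the 37 (18.9%) and in 1.81% of 27025 promoters. The ETS core CCGGAAG stood in 11 (29.7%) and in 9.12% of all. The ERR motif AAGGTCA stood in 5 (13.5%, against 4.66%) and the YY1 motif AAGATGGCG in 2 (5.41%, against 1.49%). No overlap between these motifs was removed. A match is a run of letters and not a bound site.

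As examples, the 250 bases before the start of *Cox6a1* (chr5:115348959-115349208, minus strand), *Cycs* (chr6:50566570-50566819, minus strand) and *Cox7a1* (chr7:30183921-30184170, plus strand) are given 5′ to 3′ in the direction of the gene, with motif letters in capitals. *Cox6a1* holds the NRF1 motif on both strands at overlapping positions and the ETS core on the reverse strand, *Cycs* holds the NRF1 motif, and the muscle form *Cox7a1* holds none of the 4 in this window.
Cox6a1: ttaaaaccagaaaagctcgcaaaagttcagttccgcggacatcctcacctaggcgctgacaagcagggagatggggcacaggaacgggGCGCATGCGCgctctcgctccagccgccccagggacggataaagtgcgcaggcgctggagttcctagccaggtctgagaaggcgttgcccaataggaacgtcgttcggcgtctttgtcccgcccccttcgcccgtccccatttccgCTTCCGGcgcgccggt
Cycs: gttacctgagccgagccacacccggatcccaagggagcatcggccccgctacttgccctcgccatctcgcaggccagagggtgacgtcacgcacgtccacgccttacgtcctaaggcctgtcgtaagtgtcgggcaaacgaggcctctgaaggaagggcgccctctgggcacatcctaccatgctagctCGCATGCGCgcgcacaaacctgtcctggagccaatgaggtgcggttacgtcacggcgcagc
Cox7a1: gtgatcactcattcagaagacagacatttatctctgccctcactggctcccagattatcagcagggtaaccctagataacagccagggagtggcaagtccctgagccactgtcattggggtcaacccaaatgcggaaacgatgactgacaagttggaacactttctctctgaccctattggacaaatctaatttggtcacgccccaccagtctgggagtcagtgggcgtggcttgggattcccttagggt
These 3 promoters do not stand for the rest. *Cox6a2*, the 1 member past 1.5-fold, had no matched promoter and is in neither group below. The 17 members with any of the 4 motifs had log2 fold changes from -0.11 to 0.21 with a median of 0.10, and the 20 matched members without one had -0.19 to 0.54 with a median of 0.13. *Sdhd* (-0.05) and *Atp5j2* (-0.04) hold a motif, and *Cox7b* (0.27) and *Cox5a* (0.25) hold none.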

How the data were processed

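RNA of 1 MCM culture per siRNA was measured on 2 one-colour Agilent arrays. The authors deposited the intensity of each spot, background-subtracted by the scanner software (Feature Extraction 10.7.1.1 in the submitters' processing notes) and not normalized between arrays, and a table of log2 values, which a quantile normalization of the intensities gave back to a median absolute difference of 0.000127. Its normalization is not given in the sources used here. Per the file headers, probe coordinates are of build mm9.

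From the intensities, control spots and outlier spots (226 for siRNA-NC, 188 for siRNA-Ppp2r5d) were left out. Then log2 was taken, spots of a probe were averaged and the 75th percentile of non-control probes subtracted. Probes not well above background on an array gave a bound or no value. The members and lists were chosen with earlier results of these data known. Every member was counted. Named with their values were members past 1.5-fold or measured on 1 array, muscle isoforms with their common forms, the 4 members measured by PCR in the study, all of complex II and the extremes of complexes III to V. Of the pathway lists, genes past 1.5-fold were to be named, and there were none, so the ones given were picked with their values in view. No test was possible with 1 array per group. The gene step was tested on simulated data. Alternatives were other scalings, background correction, filters and probe rules. The software was limma 3.58.1 in R 4.3.3, and Python 3.11.15 (pandas 2.3.3, NumPy 2.4.6, matplotlib 3.10.9).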

Additional observations from a re-analysis of the deposited data

How the results depend on the processing

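No paired analysis was possible because each group had 1 array, and for that reason no replicate could be left out. Another 11 settings and 1 added after the data were seen (probes of intensity 100 or more on both arrays) were applied. *Cox6a2* stayed more than 1.5-fold lower under all 12. Filters and probe rules could not change this, since its single probe passed every filter, and the authors' log2 values nearly repeat quantile normalization. Under quantile normalization, cyclic loess, spike-in scaling and the authors' log2 values, in that order, members above 0 numbered 21, 20, 14 and 21 and those below 26, 27, 33 and 26. The median of complex II was then 0.00410, -0.000821, -0.120 and 0.00367, of complex III -0.0175, -0.0133, -0.0659 and -0.0150, of complex IV 0.0394, 0.0502, 0.00229 and 0.0428, and of complex V -0.0283, -0.0197, -0.117 and -0.0272. Quantile normalization, cyclic loess and the authors' values gave differences of -0.74, -0.72 and -0.74 for *Cox6a2* minus *Cox6a1*, -0.11, -0.13 and -0.11 for *Cox7a1* minus *Cox7a2*, and 0.64, 0.62 and 0.64 for *Cox8b* minus *Cox8a*, the last being 0.27 with normexp correction. With no filter on dim probes, 1 member was past 2-fold and 2 past 1.5-fold, since *Cox8c* then had a value, and 1 pathway gene was at least 1.5-fold lower. With the brightest probe of a gene the medians of complexes II and V were 0.101 and 0.104, and the median over probes and the added filter gave 0.0923 and 0.0928 for complex II. The cause was not tested for any of these. The difference of *Cox8b* has no value under the added filter. Signal over background limits the dim isoforms.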
